A study of Mus musculus with 2 samples.

Results

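The 189 mouse microRNAs (miRNAs) described here carry numbers from 700 up to, and not including, 2000 in their names and were entered late into the miRNA catalogue. The array holds another 1058 mouse miRNAs. Members were chosen by name alone, as every miRNA with a number in that range, any letter and either arm. Left out were miR-758, miR-770, miR-1188, miR-1193 and miR-1197 of the imprinted Dlk1-Dio3 cluster. Positions were not screened, so miR-1906, which has a copy in the span of the imprinted noncoding gene Meg3, stayed in. The range itself was proposed with results of these arrays in view, so the levels and differences are given as descriptions and support nothing about the range. The study asked which miRNAs differ in knee joint cartilage when the growth kinase complex mTORC1 is overactive, as a model of osteoarthritis. It has 2 samples, both from male mice of 8 weeks and each on 1 one-colour Agilent array. The control is labelled wildtype and the other sample is labelled Col2a1; Tsc1 KO, here Col2a1Tsc1KO. Tsc1 restrains mTORC1, and the series text describes its deletion as specific to Col2a1, a cartilage collagen gene; the labels do not give the Cre line, the fraction of cells that lost Tsc1, or how many mice gave the cartilage. The series text speaks of independent experiments, but 1 array per group is used here. With 1 array per group there was no replicate check of any difference, no p-value was computed, and every error given is a standard error (SE) over spots within the arrays.

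A mature miRNA is a short RNA cut from one arm of a hairpin precursor. It guides an Argonaute protein to messenger RNAs, and bases 2 to 8 from its 5′ end, the seed, do most of the pairing. miRNAs are numbered in the order in which they were catalogued, so early numbers hold the abundant and widely conserved families, while later ones came mainly from deep sequencing and include mirtrons (hairpins made by splicing of short introns), pieces of ribosomal, transfer or small nucleolar RNA, and entries known only in rodents. Among them miR-1247 is reported to target Sox9, the cartilage transcription factor.

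The sequences below belong to the members whose difference between the arrays was at least 2-fold. Of the 189 members 153 had a mature sequence in the RefSeq table (build GRCm38.p6), and all 398 array probes of these pair with its 3′ end. Longer probes reach into the seed. In the first 4 lines, 5′ to 3′, capitals mark the seed. The other 4 lines give the target of the longest array probe, which is its reverse complement written as DNA in lower case, because the table had no mature entry for that name. miR-1949, the remaining one, is named only.
miR-760-3p: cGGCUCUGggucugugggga
miR-1187: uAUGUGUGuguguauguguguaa
miR-706: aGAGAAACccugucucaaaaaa
miR-1839-5p: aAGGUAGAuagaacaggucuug
miR-1196-5p: acctgcctctgcct
miR-1196-3p: ggtgagggtggtttttt
miR-1927: tggatgttagggactga
miR-714: ggccggtcggtcgc
The 4 seeds printed differ, and miR-1187 is largely a repeat of G and U, with 8 GU steps in 23 bases. In GRCm38.p6, miR-760-3p lies at chr3:122293615-122293634 (minus strand) in the span of the predicted gene Gm40190, and miR-1187 at chr5:82798964-82798986 (minus strand) outside any listed gene. miR-706 lies at chr6:120034290-120034311 (minus strand) within the span of Wnk1, a kinase of ion transport, and miR-1839-5p at chr7:81529919-81529940 (plus strand) within the noncoding gene 2900076A07Rik. The table gives gene spans and not exons, so exon or intron was not assigned.

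Both arrays had 52044 spots and lay on 1 slide, so group and slide position cannot be told apart. Of the member spots, 17.5% (control) and 16.9% (knockout) were marked well above background by the scanner software, against 19.6% and 21.1% of all miRNA spots, and none was saturated. The median negative-control intensity was 5.02 for control and 4.93 for knockout. A probe counted as well above background when over 50% of its usable spots were so marked. Intensities below are background-subtracted, averaged over spots on the log2 scale, and scaled to the level of the control array: knockout values were divided by 1.33, the ratio of the 75th percentiles of the 476 probes that passed on each array. The array cannot show Tsc1 mRNA, so the genotype labels were not checked on it. The sum of 4 cartilage miRNAs (both arms of miR-140 and of miR-455) was 2014 in control and 4570 in knockout cartilage. Of the 4, 3 were higher in knockout cartilage and miR-455-5p was at -0.03. The cartilage label thus had signal of its defining miRNAs on both arrays. On the control array 4 leukocyte miRNAs had a larger sum, 8356. In such bulk tissue fewer cells of a type and less RNA per cell cannot be told apart.

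Detection of the late-numbered miRNAs on both arrays was near that of the array as a whole. Of the 189, 33 (17.5%) were well above background on both arrays, 6 on the control array alone, 2 on the knockout array alone and 148 on neither. Over the whole array 20.6% of miRNAs were well above background on both arrays. There 24 miRNAs passed on the control array alone and 39 on the knockout array alone. Calls on 1 array alone thus fell mostly on the control side for the members and mostly on the knockout side for the whole array. The 33 carry 30 precursor names, since both arms of miR-1196, miR-1839 and miR-1897 were measured, and so are not 33 independent molecules. Detection was uneven along the numbers. Taking members up to the start of the next range, from 700 it was 6 of 43 measured on both arrays, from 800 it was 1 of 31, from 1000 it was 10 of 30, from 1400 it was 8 of 16, and from 1900 it was 8 of 69.

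Members that share their number with a human miRNA, a sign that the hairpin is not confined to rodents, were seldom called: 5 of 47 were measured on both arrays and 41 (87.2%) on neither. For comparison, 74.3% of all miRNAs on the array and 78.3% of the members were on neither, so most small groups have few called. Those not well above background on either array included both arms of miR-708, a relative of miR-28, of miR-744, of miR-874, of the pancreatic and hepatic miR-802, and of miR-1247. Of 20 arms from the X-linked cluster near Fmr1, which is expressed in testis, 19 were called on neither array, and so were all 8 arms made from introns of the serotonin receptor gene Htr2c. Of the 6 mirtron arms, miR-1224-5p was measured on both arrays and miR-877-3p on the control array alone. Of 4 arms listed as pieces of other RNAs, both miR-1839 arms were measured on both arrays, miR-712-5p on the control array alone and miR-712-3p on neither. That list is not complete: the 4 arms of miR-1843a and miR-1843b, which lie in the spans of the guide RNA genes Scarna3b and Scarna3a, passed on neither array.

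At the main scaling most measured members had lower signal on the knockout array. Of the 33, 8 were at least 2-fold lower (24.2%, against 17.5% of all 257 miRNAs measured on both arrays) and 1 was at least 2-fold higher (3.03%, against 15.6%). The median log2 difference, knockout minus control, was -0.56 over the members, -0.22 over all 257 and -0.14 over the other 224. In all 27 members lay below 0 and 6 above, and 24 lay below the median of all. Of all 257, 152 (59.1%) lay below 0. The number below 0 depends on the scaling. With no scaling 19 of the 33 were lower and 14 higher, and 100 of all 257 were lower. The medians were then -0.15 over members and 0.19 over all. At least 2-fold lower were then 1 of the 33 (3.03%) and 5.06% of all 257, and 2-fold higher 1 of the 33 (3.03%) and 23.0% of all. The members' median lay -0.35 from that of all at the main setting. That distance was -0.14 with normexp and quantile normalization, -0.20 with the total gene signal, -0.24 with a floor in place of the filter and -0.50 in the deposited log2 values. The arrays differed in marker miRNAs of neighbouring cell types as well: the summed scaled intensity of 4 leukocyte miRNAs was 8356 in control and 3863 in knockout cartilage, that of 4 skeletal muscle miRNAs 1223 and 640, that of 2 red cell miRNAs 2030 and 3011, and that of 2 endothelial miRNAs 1349 and 1715, all measured. Such sums follow their brightest members, and 3 of 4 leukocyte and 3 of 4 muscle miRNAs were lower. Their part in the members' differences was not tested.

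**Figure D1:**
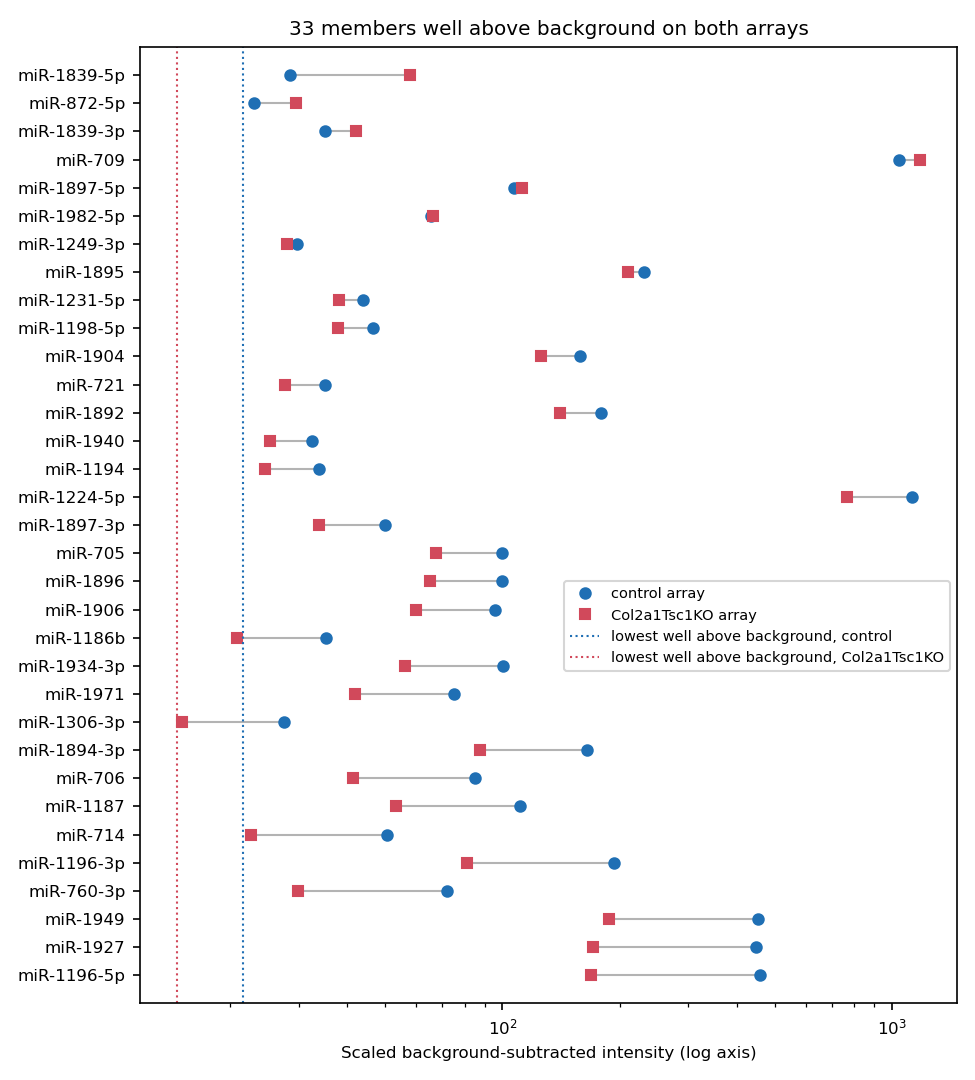
Scaled background-subtracted intensity (log axis) of the 33 members on the control array (circles) and the Col2a1Tsc1KO array (squares), 1 array each, ordered by difference; dotted lines mark the lowest signal of any probe well above background, 21.6 in control and 14.6 in knockout cartilage. Squares lie left of circles for 27 members, and many members sit near the dotted lines.

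By ranges of numbers, the 98 measured miRNAs numbered below 200 had a median log2 difference of 0.61, the 65 from 200 and below 700 of -0.25, the 28 from 2000 and below 4000 of -0.34, and the 33 numbered 4000 and above of -0.58. The median of the members thus lay between those of the later ranges, and the earliest range alone had a positive one at this scaling. The last measured miRNAs before the range were miR-681 at -0.31 ± 0.04 and miR-690 at 0.54 ± 0.01, and the first inside were miR-705 at -0.56 ± 0.02 and miR-706 at -1.04 ± 0.06. The last inside were miR-1971 at -0.85 ± 0.03 and miR-1982-5p at 0.02 ± 0.03, and the first beyond were miR-2137 at 0.33 ± 0.02 and miR-2861 at 0.11 ± 0.02. Of the 10 arms left out for the Dlk1-Dio3 cluster, miR-1188-3p was well above background on the control array alone and the other 9 on neither.

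**Figure D2:**
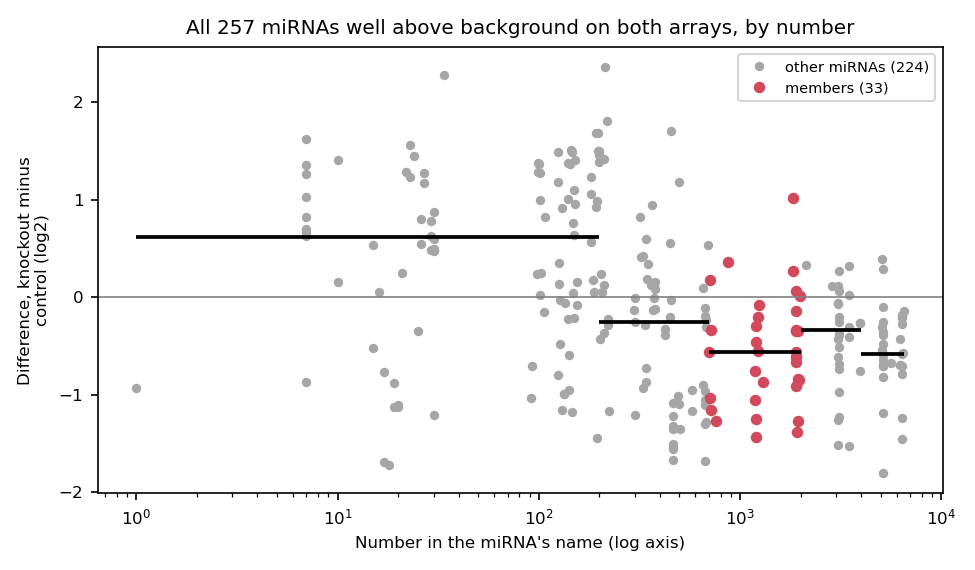
Log2 difference, knockout minus control, of all 257 miRNAs measured on both arrays against the number in the miRNA's name (log axis); red points are the 33 members, grey points the other 224, and black bars the median of each range of numbers. The bar of numbers below 200 is at 0.61 and that of the members at -0.56.

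Both arms of miR-1196 were among the lowest members. miR-1196-5p had a scaled intensity of 458 in control and 169 in knockout cartilage. Its log2 difference was -1.44 ± 0.02, or 2.71-fold lower, the lowest of the 33, and its 2 probes gave -1.47 and -1.41. miR-1196-3p had 193.0 and 81.3, a difference of -1.25 ± 0.03, and rests on 1 of its 2 probes. The knockout value was below the control value for each of these probes. miR-1927 had 447 and 171, a difference of -1.39 ± 0.02, or 2.62-fold lower. miR-1949 had 454 and 188, a difference of -1.27 ± 0.01, or 2.42-fold lower. The sign held under all 15 alternatives for these 4 members. miR-1196-5p, miR-1927 and miR-1949 stayed between -0.77 and -1.61, while miR-1196-3p reached -0.20 with the software's total gene signal.

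A further 4 members were at least 2-fold lower. miR-760-3p, which is shared with human and reported to repress the kinase CK2 in ageing cells, had a scaled intensity of 72.1 in control and 29.8 in knockout cartilage, a difference of -1.27 ± 0.09. It rests on 1 of 4 probes and shrank to -0.11 with the total gene signal, -0.48 with normexp and quantile normalization, and -0.74 with a floor in place of the filter. miR-714, linked with miR-712 to calcification of vascular smooth muscle cells, had 50.5 and 22.6, a difference of -1.16 ± 0.08, likewise from 1 of 4 probes. With the total gene signal the miR-714 difference turned to 0.64. The repeat-like miR-1187 had 111.0 and 53.3, a difference of -1.06 ± 0.02 from 2 probes at -1.12 and -0.996. miR-706 had 85.2 and 41.4, a difference of -1.04 ± 0.06, and its 4 probes ran from -1.43 to -0.65, the widest spread between probes among the members. All but miR-714 of the 8 kept their sign under every alternative.

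A further 10 members lay between -0.91 and -0.56. miR-1894-3p, in the span of Ppp1r10, had a scaled intensity of 165 in control and 87.7 in knockout cartilage, a difference of -0.91 ± 0.02. miR-1306-3p, which lies within Dgcr8, the gene of the partner of the miRNA-processing enzyme Drosha, had 27.5 and 15.03, a difference of -0.87 ± 0.10. It rests on 1 of its 2 probes, with 55% of the knockout spots well above background. Its knockout value is almost at the lowest signal called well above background there, 14.6. miR-1971 had 75.4 and 41.85, a difference of -0.85 ± 0.03. miR-1934-3p had 100.4 and 56.2, a difference of -0.84 ± 0.03. miR-1186b had 35.3 and 20.8, a difference of -0.76 ± 0.08 that turned to 1.56 with the total gene signal.

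miR-1906 comes from identical copies on chromosome 12, in the span of the imprinted noncoding gene Meg3 at chr12:109544588-109544609, and on the X chromosome. Its mature sequence is the same at both, so the array cannot say which copy gave the signal.
miR-1906: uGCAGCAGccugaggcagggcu
It had a scaled intensity of 95.6 in control and 60.1 in knockout cartilage, a difference of -0.67 ± 0.04. miR-1896 had 100.04 and 65.3, a difference of -0.62 ± 0.02. miR-705, reported to restrain bone formation from marrow stromal cells, had 99.8 and 67.7, a difference of -0.56 ± 0.02, and all 4 of its probes were negative, from -0.69 to -0.44. The mirtron miR-1224-5p, from the span of Vwa5b2 at chr16:20604452-20604472, had 1128 and 766.6, a difference of -0.56 ± 0.01, with probes at -0.58 and -0.54. These 4 members kept their sign under all 15 alternatives.

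**Figure D3:**
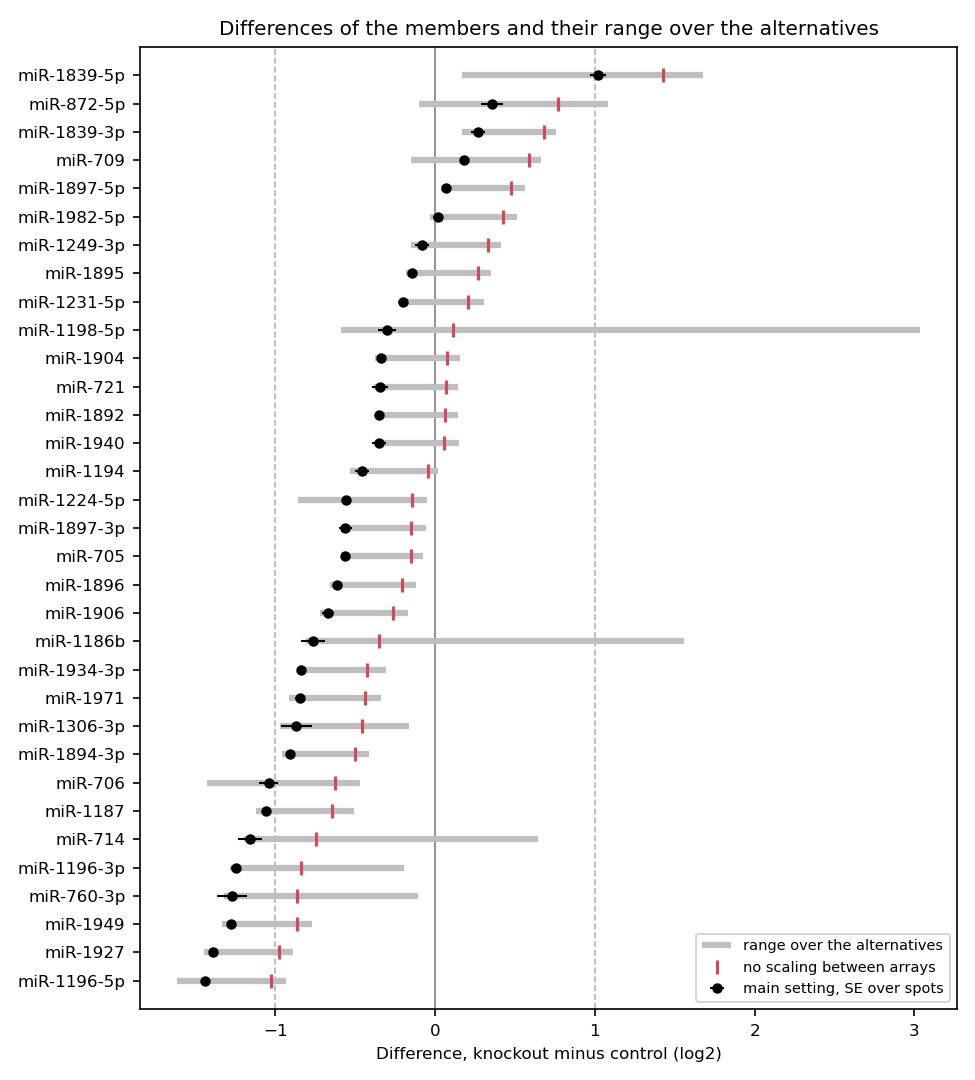
Log2 difference, knockout minus control, of the 33 members at the main setting (points, SE over spots), with no scaling between arrays (red ticks) and the range over the alternatives (grey bars); dashed lines mark 2-fold. Among the 9 members past 2-fold the grey bar crosses 0 for miR-714 alone, and it crosses 0 for 13 of the remaining 24.

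The arms of miR-1897, made from 1 hairpin in the span of the noncoding gene Sox2ot, stood apart. miR-1897-3p had a scaled intensity of 50.01 in control and 33.9 in knockout cartilage, a difference of -0.56 ± 0.04. miR-1897-5p had 107.2 and 112.3, a difference of 0.07 ± 0.02. The 2 probes gave -0.57 and -0.55 for the 3p arm and 0.05 and 0.08 for the 5p arm, and scaling cannot change the gap between the arms when it adds 1 constant. Of the other pairs, the arms of miR-1839 stood at 1.02 and 0.27 and those of miR-1196 at -1.44 and -1.25.

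Most members nearer to 0 had a sign that depends on the scaling. Scaled intensities of miR-1194 were 33.8 for control and 24.6 for knockout, a difference of -0.46 ± 0.04. miR-1940 had 32.4 and 25.4, a difference of -0.35 ± 0.04. Both were lower at the main scaling. miR-1892 had 179 and 141, a difference of -0.35 ± 0.02. miR-1904, in the span of the phosphodiesterase gene Pde4d, had 159 and 126, a difference of -0.34 ± 0.03. miR-1198-5p had 46.6 and 37.8, a difference of -0.30 ± 0.06 from 1 of its 2 probes, which reached 3.03 with the total gene signal. With no scaling their values ran from -0.05 for miR-1194 to 0.11 for miR-1198-5p. miR-1231-5p had 43.9 and 38.2, a difference of -0.20 ± 0.03. miR-1895 had 232 and 209.98, a difference of -0.14 ± 0.01. miR-1249-3p had 29.6 and 28.05, a difference of -0.08 ± 0.04. These 3 all turned positive with no scaling and with quantile normalization. miR-1982-5p, within the span of Oaz1, had 65.5 and 66.2, a difference of 0.02 ± 0.03, less than its standard error, and its 2 probes had opposite signs.

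miR-721 shares its seed with the miR-130 and miR-301 family, known in fat cell and vascular biology, and is printed beside the family members that were measured to show the common seed and the sequence outside it, which differs.
miR-721: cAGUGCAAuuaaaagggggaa
miR-130a-3p: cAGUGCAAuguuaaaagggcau
miR-130b-3p: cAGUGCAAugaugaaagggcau
miR-301a-3p: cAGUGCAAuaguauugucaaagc
miR-721 lies within the span of Cux1 and had a scaled intensity of 35.03 in control and 27.6 in knockout cartilage, a difference of -0.34 ± 0.05 that turned to 0.07 with no scaling. miR-130a-3p was at 0.91 ± 0.01, miR-130b-3p at -1.16 ± 0.02 and miR-301a-3p at -0.25 ± 0.04. A common seed thus went with differences of either sign in this family.

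1 member alone, miR-1839-5p, passed 2-fold in the other direction, higher in knockout cartilage. It is cut from a small nucleolar RNA. Its scaled intensity was 28.6 in control and 57.9 in knockout cartilage, a difference of 1.02 ± 0.05, or 2.03-fold, and it was positive under all 15 alternatives, from 0.17 to 1.68. The value rests on the longest of its 3 probes. The unscaled mean intensities of its probes of 17, 18 and 19 bases were 1.95, 9.0 and 28.6 for control and 10.8, 29.98 and 77.3 for knockout. The 17-base probe was not well above background on either array and the 18-base probe not in control, so only the longest gives a measured difference. The scaled knockout signal of the 18-base probe, 22.3, lay just above the lowest signal called well above background in control, 21.6. The other arm, miR-1839-3p, had scaled intensities of 35.04 and 42.2, a difference of 0.27 ± 0.04 with all 3 probes between 0.24 and 0.30, and it too was positive under all 15 alternatives.

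Of the other members above 0, miR-872-5p, which lies within the span of the cilium transport gene Ift74, had a scaled intensity of 23.1 in control and 29.5 in knockout cartilage. Its difference was 0.36 ± 0.07, from 1 of 2 probes, and turned to -0.10 when dim probes were kept at a floor. miR-709, a mouse miRNA reported to act in the nucleus on the precursor of miR-15a and miR-16, was bright on both arrays, at 1041 and 1179. Its difference was 0.18 ± 0.01, with probes at 0.16 and 0.20, and it turned to -0.15 with quantile normalization and was negative in the deposited log2 values. The differences of miR-1839-5p, miR-1839-3p and miR-1897-5p thus kept a positive sign under every alternative tried, while those of miR-872-5p, miR-709 and miR-1982-5p did not.

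The members well above background on 1 array alone have only a bound on their fold. The bound divides the bright signal by whichever is higher on the other array, the member's own signal there or the lowest signal passing as well above background. miR-883b-5p of the X-linked testis cluster had a scaled intensity of 40.03 in control and 14.3 in knockout cartilage and was at least 2.73-fold lower on the latter. miR-712-5p, made from the ribosomal RNA precursor and known in endothelium under disturbed flow as a repressor of Timp3, had 29.0 and 13.4 and was at least 1.96-fold lower. miR-1931 had 28.5 and 9.75 and was at least 1.94-fold lower. miR-1930-3p had 26.1 and 9.01 and was at least 1.78-fold lower. All 6 members on the control side were lower in knockout cartilage by construction of the group. The mirtron arm miR-877-3p, from the span of Abcf1, had 24.7 and 9.01 and was at least 1.68-fold lower, and miR-1967, at 22.05 and 7.41, was at least 1.505-fold lower. On the knockout side miR-1907 had 16.3 and 22.3 and was at least 1.04-fold higher. miR-1957a, at 10.3 and 20.0, has no fold, since its bright signal does not exceed the lowest signal called well above background on the control array, 21.6. With no scaling every control-side bound would be divided by 1.33.

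miR-883b-5p is shown with its bounds because its probes disagreed.
miR-883b-5p: uACUGAGAauggguagcaguca
Its 4 nested probes of 12 to 15 bases all pair with the 3′ end. Only the shortest was bright, with a mean unscaled intensity of 40.2 in control and 19.2 in knockout cartilage, while the 3 longer ones ran from -6.30 to -4.86 and from -7.94 to -5.78, below the negative-control median. For miR-760-3p, too, a longer probe was dimmer: its 13-base probe read 72.9 on the control array and the 14-base probe that contains it read 15.1.

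Base composition was compared by detection, as a description of medians. Among members with a RefSeq entry the 21 measured on both arrays had a median of 60.9% G or C and 9 G per sequence, against 52.4% and 5 for the 127 on neither array, with a median length of 22 bases in both. Single members departed from this: miR-706, measured on both arrays, has 3 G and miR-1249-3p has 1. Over all 189 the longest probe, which is complementary and thus C-rich where the miRNA is G-rich, held a median of 43.8% C for the 33 measured on both arrays and 27.2% for the 148 on neither. Composition was also set against the difference between the arrays. Across the 33, which share the same 2 arrays, the share of G or C in the longest probe correlated with the log2 difference at Pearson r = -0.08 and Spearman rho = 0.003. The 20 members at or above the median share of 60% had a median difference of -0.56 with 3 at least 2-fold lower, and the 13 below it had -0.46 with 5 at least 2-fold lower.

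**Figure D4:**
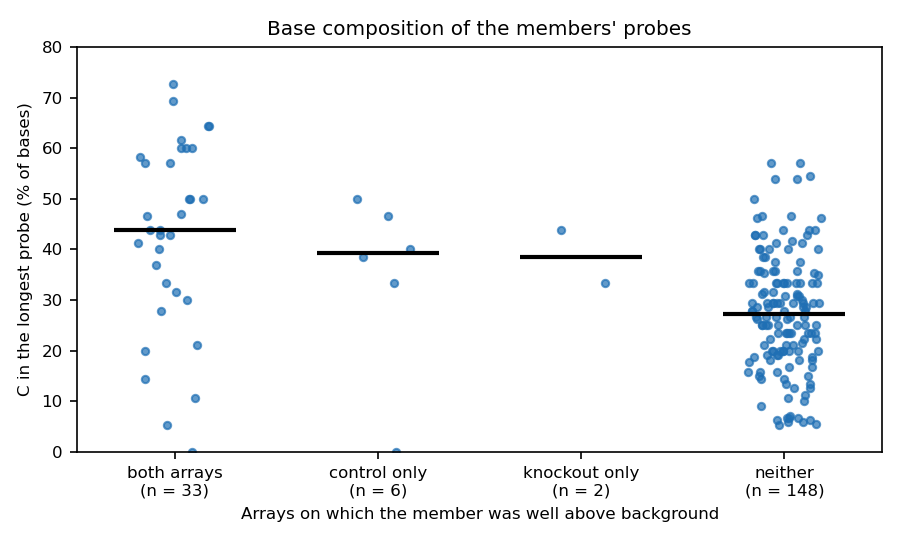
Share of C in the longest probe of each of the 189 members, grouped by the arrays on which the member was well above background; points are miRNAs, spread sideways only for visibility, and bars are medians. The bar is at 43.8% for the 33 measured on both arrays and at 27.2% for the 148 on neither.

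Several members share a seed with a measured miRNA yet gave no signal of their own. Their sequences are shown beside a measured partner because they match in the seed and differ outside it.
miR-761: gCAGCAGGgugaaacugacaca
miR-214-3p: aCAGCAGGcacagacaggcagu
miR-1961: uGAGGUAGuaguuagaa
let-7a-5p: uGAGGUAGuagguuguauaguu
miR-1928: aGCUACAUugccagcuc
miR-221-3p: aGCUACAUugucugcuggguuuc
miR-761 carries the seed of miR-214-3p, miR-1961 that of let-7, a family with 9 measured members, and miR-1928 that of miR-221 and miR-222. None of these 3 passed as detected on the control or the knockout array, nor did miR-702-5p, miR-882 or miR-1943-5p, which share seeds with the measured miR-3102-5p, miR-3473a and miR-149-3p. The measured partners moved in different ways: miR-214-3p stood at 2.36 ± 0.03, let-7a-5p at 1.03 ± 0.01 and miR-221-3p at -0.28 ± 0.02. The 21 measured members with an entry had 21 different seeds.

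Spot noise was small beside most differences: the SE ran from 0.01 to 0.10 with a median of 0.03, 31 of the 33 differences exceeded 2 SE, and for 25 of the 26 members with more than 1 probe all probes used had 1 sign. This error holds neither animal nor hybridisation variation. Closeness to background limits the dim members, since 9 of the 33 in control and 7 in knockout cartilage were within 2-fold of the lowest signal called well above background there, and 7 rest on 1 probe.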

How the data were processed

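Agilent Feature Extraction 10.7 read the scans, per the submitters' processing notes. Deposited files of each scan hold background-subtracted, raw mean and local background intensity per spot, per the file headers, unscaled between arrays. The authors' deposited table of log2 values is of unstated making; its columns have medians of -3.26 (control) and -3.32 (knockout), which are their floors, and follow the log2 probe totals with slopes of 1.06 and 1.08 (r = 0.99 and 0.97). The scale is thus log2 and higher means brighter; its normalization and floor stay unknown.

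Outlier spots were dropped, log2 intensity was averaged per probe, the 75th percentiles of the probes passing on both arrays were set equal, and the difference was averaged over such probes (Python 3.11.15, limma 3.58.1 for normexp with an offset of 50). The steps were tested on simulated data, a copy of the control array with added noise and known shifts. Estimates were centred on the unshifted miRNAs and the detection marks were copied, so neither the scaling nor detection was checked. All 33 members measured on both arrays, the members measured on 1, and the lists named are given. Members and lists were chosen with earlier results of these data known. In all 12 planned and 3 added alternatives were run. The array's own probe coordinates mix builds and were not used.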

Additional observations from a re-analysis of the deposited data

How the results depend on the processing

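Of the 33 differences, 19 kept their sign under every alternative and 14 did not, and 24 kept it under every scaling. The median was -0.56, with 8 members at least 2-fold lower (24.2%, against 17.5% of all 257) and 1 higher (3.03%, against 15.6%). Scaling to the 75th percentile over all probes gave -0.13, with 1 lower (3.03%, against 5.06% of all) and 1 higher (3.03%, against 23.0%). No scaling gave -0.15, with 1 lower and 1 higher, at the same shares. The count of higher calls stayed at 1 while the lower calls fell from 8. Spike-in probes gave -0.20 with 2 lower (6.06%, against 5.45% of all), quantile normalization -0.35 with 5 lower (15.2%, against 13.6%), and the median of the probes -0.44. These moved the median of all measured miRNAs by 0.43, 0.41, 0.36, 0.21 and 0.12, in that order. Normexp with quantile normalization gave -0.16, with 0 lower and 0 higher, against 1.17% and 8.95% of all. The software's total gene signal reversed the median to 0.10 over 38 members, and miR-714 to 0.64. With it 0 members were lower (against 7.89% of all 304) and 5 higher (13.2%, against 26.3%), and the median of all was 0.30. The cause of the reversals was not tested. The sum of the probe totals, chosen after seeing the data, gave -0.36 over 37 members. There 8 were lower (21.6%, against 12.5% of all 303) and 1 higher (2.70%, against 17.2%). The deposited log2 values gave -0.50 over 38 members, with 8 lower (21.1%, against 17.8% of all 304) and 2 higher (5.26%, against 16.8%). A floor in place of the filter gave -0.57 over 41 members, with 5 lower (12.2%, against 11.8% of all 323) and 0 higher (against 11.5%). Spots of the lower rows only, also chosen after seeing the data, gave -0.46. The other alternatives moved neither count by over 1.5 times. No paired analysis was possible because each group has 1 array.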
